A study of Mus musculus with 4 samples.

Results

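Squamous differentiation in mouse prostate tumours was followed through 8 genes, Krt6a, Krt13, Sprr1a, Sprr1b, Sprr2d, Dsg3, Dsc2 and Serpinb1a, out of the 32285 genes in the deposited tables. The genes were taken by symbol and each was found. Their raw counts of unique molecular identifiers (UMIs, each standing for 1 captured transcript molecule) were read in 210 epithelial cells out of 3381 retained cells. A cell was taken as epithelial with at least 10 UMIs of the luminal genes Krt8, Krt18, Krt19 and Epcam together, or at least 10 UMIs of the basal keratins Krt5 and Krt14 together. The 8 genes were chosen for how they differed between the genotypes in these same libraries, so their levels in TKO and DKO epithelial cells are a description and carry no test.

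Cells came from 2 kinds of prostate tumour, with 2 single-cell RNA-seq libraries each. TKO tumours carried Nkx3.1CreERT2, a Cre recombinase that tamoxifen switches on in Nkx3-1-expressing prostate epithelium, with floxed alleles that include Smad4 and, in addition, Pygo2L/L. DKO tumours carried the same Cre and the same floxed alleles with no floxed Pygo2. Pygo2 is a chromatin reader that works with beta-catenin, and Smad4 carries TGF-beta and BMP signals. The series design calls the lines nTKOLuc and nDKOLuc and gives 10 or 17 weeks from tamoxifen to collection, without saying which library had which, so time and genotype cannot be told apart. Whether each library stands for its own animal is not stated, and p-values then speak only of variation among 4 libraries, part of which may be technical. Pygo2 gave 14.2 and 8.06 UMIs per 1000000 UMIs (CPM) in TKO epithelial cells and 6.77 and 8.52 CPM in DKO epithelial cells, and Smad4 63.29 and 63.35 against 72.9 and 73.5 CPM. Which exons were floxed was not used here, so a 3-prime tag may lie outside the deleted part and these levels check neither the deletion nor the labels.

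Stratified squamous epithelia renew from a basal layer that makes Krt5 and Krt14 under the control of Trp63, and their upper layers switch on other keratins, tighten their desmosomes and build a cornified envelope. Krt6a is a keratin of activated and suprabasal epithelium, and Krt13 belongs to internal stratified linings such as the oral cavity and oesophagus. The small proline-rich proteins encoded by Sprr1a, Sprr1b and Sprr2d are cross-linked into the envelope by transglutaminases. Dsg3 and Dsc2 are desmosomal cadherins, which join neighbouring cells. Serpinb1a encodes a clade B serpin that inhibits serine proteases of neutrophils and is made by epithelia and leukocytes alike. The normal prostate is lined by luminal and basal cells that do not cornify.

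The 3 Sprr genes lie in the epidermal differentiation cluster of chromosome 3, and their upstream sequences are shown because these genes neighbour each other and differ below in level and in the cells that carried them. The 250 bases before each gene's start come from RefSeq (GRCm38.p6), whose promoter table held 4 of the 8 genes. Distances count from the RefSeq start. The gene spans given below come from GENCODE, and those of Sprr1a and Sprr1b begin further upstream and reach into these windows. Each sequence runs 5' to 3' on the gene's own strand. Capitals mark TGANTCA, the motif of AP-1 factors, and TATAAA, both searched on both strands, with no overlap between them here. The windows are chr3:92485882-92486131 on the minus strand (Sprr1a), chr3:92438780-92439029 on the minus strand (Sprr1b) and chr3:92338890-92339139 on the plus strand (Sprr2d).
Sprr1a: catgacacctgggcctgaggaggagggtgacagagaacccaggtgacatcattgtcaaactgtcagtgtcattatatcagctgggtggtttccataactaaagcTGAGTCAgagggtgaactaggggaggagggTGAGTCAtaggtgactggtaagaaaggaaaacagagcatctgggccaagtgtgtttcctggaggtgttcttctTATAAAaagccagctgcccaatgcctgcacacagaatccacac
Sprr1b: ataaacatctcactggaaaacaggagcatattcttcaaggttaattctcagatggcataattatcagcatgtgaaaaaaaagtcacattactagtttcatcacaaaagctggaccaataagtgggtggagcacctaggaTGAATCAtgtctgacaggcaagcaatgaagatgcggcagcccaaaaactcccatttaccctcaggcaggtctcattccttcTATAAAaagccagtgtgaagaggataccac
Sprr2d: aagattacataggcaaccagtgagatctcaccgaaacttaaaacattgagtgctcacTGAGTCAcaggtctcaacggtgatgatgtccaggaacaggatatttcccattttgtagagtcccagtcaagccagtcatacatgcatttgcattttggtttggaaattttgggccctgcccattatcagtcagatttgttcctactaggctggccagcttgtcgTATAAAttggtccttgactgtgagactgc

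Sprr1a held 2 matches to the AP-1 motif, which began 146 and 116 bases before the start, and Sprr1b and Sprr2d held 1 each, which began 111 and 193 bases before it. Each of the 3 had 1 TATAAA, beginning 43, 30 and 29 bases before the start in Sprr1a, Sprr1b and Sprr2d. Of 32851 promoter windows of the same length, 6.75% held TGANTCA and 12.4% held TATAAA. These are matches of letters and not measured sites. Krt13, listed with 2 starts, had 1 and 2 matches to the AP-1 motif and no TATAAA.

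The other genes lie on chromosome 15 (Krt6a, 101689910 to 101694307), chromosome 11 (Krt13, 100117327 to 100121566), chromosome 13 (Serpinb1a, 32842092 to 32851185) and chromosome 18 (Dsg3, 20510274 to 20547459, and Dsc2, 20030633 to 20059554), all in mm10 and all protein-coding. The Sprr genes span 92483952 to 92485895 (Sprr1a), 92436809 to 92438789 (Sprr1b) and 92339140 to 92340873 (Sprr2d) on chromosome 3. In the last 500 bases of the longest coding transcript of each gene, 0 of 411 windows of 90 bases were found in a transcript of another gene. An exact 3-prime read of that length from this stretch would therefore match 1 gene in the annotation, also within the Sprr family. Only exact matches were searched, so how reads with mismatches were placed was not tested.

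The TKO libraries held 54 and 27 epithelial cells among 1208 and 797 retained cells, and the DKO libraries 36 and 93 among 617 and 759. No barcode was shared between libraries, and in every retained cell the hashtag of its own label was the most abundant. Both can follow from assigning combined cells to libraries by hashtag, so they do not check the labels. Epithelial cells had a median of 15690 and 13050 UMIs in the TKO libraries and 21426 and 35739 in the DKO libraries, with medians of 1.99% and 2.84% against 3.19% and 3.53% mitochondrial UMIs. The part of these differences in the results was not tested beyond the thinning described below. Of the 210 cells, 198 had an Epcam UMI. Basal keratin cells, those with at least 10 UMIs of Krt5 and Krt14, numbered 6 and 2 in the TKO libraries and 6 and 19 in the DKO libraries, which is 11.1% and 7.41% against 16.7% and 20.4% of epithelial cells. All 33 also passed the luminal part of the gate, and the other 177 cells are called luminal-only.

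The gate let in some cells with RNA of other types. In 2 TKO replicate 1 cells the 7 seminal vesicle genes made up as much as 55.5% of UMIs. Summed over the gate, these genes stood at 79437 and 58.7 CPM in the TKO libraries, with Svs1 at 0 in replicate 2, and at 121 and 39.7 CPM in the DKO libraries, with Svs1 at 0 in both. In 5 DKO replicate 2 cells the 8 B and plasma cell genes made up as much as 54.1%. In all, 10 and 4 TKO cells and 6 and 13 DKO cells drew at least 1% of their UMIs from the markers of another type, and they held 1305 of the 9379 UMIs of the 8 genes. The fitted changes without these 33 cells are given below. By another measure, cells with 10 or more UMIs of 13 leukocyte genes numbered 25 and 12 in TKO and 18 and 47 in DKO. The 5 uroplakin genes of bladder lining, which also expresses some of the squamous genes, summed to 118 and 16.1 CPM in TKO epithelial cells, with Upk3b at 0 in replicate 2, and to 299 and 98.9 CPM in DKO epithelial cells, with none at 0. Their part in the results was not tested. Of the 31 other cornified envelope genes listed, 22 had a UMI in the gate and 10 passed the count filter. They ranged widely: over all 210 cells Ivl (involucrin) had 34 UMIs and Lor (loricrin) 19, whereas Ecm1 stood at 460 and 81.8 CPM in TKO and 1181 and 631 CPM in DKO.

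Krt6a was lower in both TKO libraries. It had 208 and 25 UMIs in TKO epithelial cells, against 662 and 1804 UMIs in DKO epithelial cells. Scaled to library totals this was 105 and 28.8 CPM in TKO against 498 and 404 CPM in DKO (67.1 ± 54.1 and 451 ± 66.1 CPM, SD, n = 2 each). The TKO values lay below both DKO values without overlap, and the fitted log2 fold change was -2.72 ± 0.69 (SE, TKO over DKO). It ran from -4.13 (without TKO replicate 1) to -2.08 (without TKO replicate 2) with a library left out. In such sums fewer cells with the transcript and less RNA per cell cannot be told apart. Krt6a transcripts were found in 17 of 54 and 7 of 27 TKO cells (31.5% and 25.9%) and in 17 of 36 and 49 of 93 DKO cells (47.2% and 52.7%). In basal keratin cells the levels were 175 and 75.9 CPM in TKO and 2151 and 1082 CPM in DKO, again apart. These rest on few cells: TKO replicate 2 had 5 UMIs in 2 cells, and 1 cell held 314 of the 601 UMIs of DKO replicate 1. In luminal-only cells they overlapped, at 88.9 and 24.9 CPM in TKO and 58.1 and 129 CPM in DKO.

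Krt13, the other keratin, did not separate the genotypes over all epithelial cells. It had 118 and 1 UMIs in TKO epithelial cells (59.7 and 1.15 CPM) and 1229 and 240 in DKO epithelial cells (924 and 53.8 CPM), so that TKO replicate 1 lay above DKO replicate 2. The fitted log2 fold change was -3.86 ± 2.10. Only 9 of 54 and 1 of 27 TKO cells and 7 of 36 and 13 of 93 DKO cells carried it. With a library left out the fitted change ran from -8.79 (without TKO replicate 1) to -0.76 (without DKO replicate 1). In luminal-only cells the levels were apart, at 28.2 and 1.25 CPM in TKO and 393 and 58.7 CPM in DKO. Of the 186 UMIs of DKO replicate 2 there, 1 cell held 181. In basal keratin cells the levels overlapped, at 193 and 0 CPM in TKO and 2921 and 41.9 CPM in DKO.

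**Figure D1:**
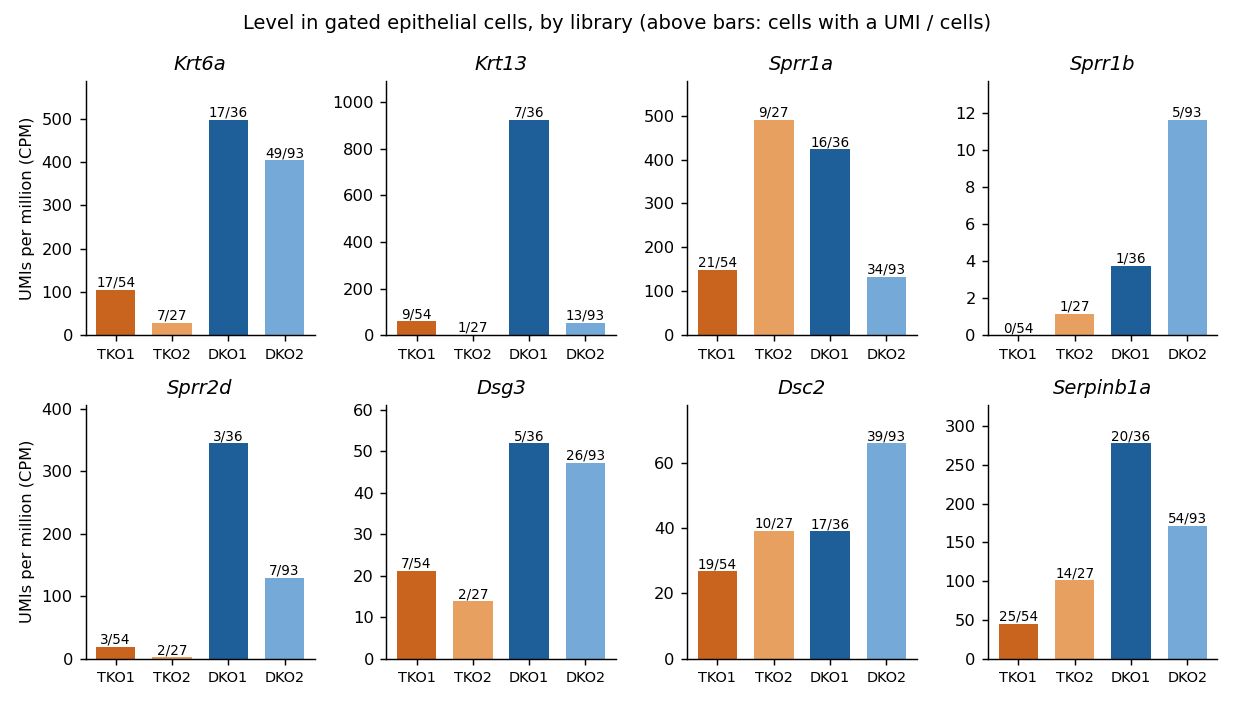
Level of each of the 8 genes in gated epithelial cells of the TKO and DKO libraries, in UMIs per 1000000 UMIs (CPM, bars), with the number of cells with a UMI over all epithelial cells above each bar. Both TKO bars lie below both DKO bars for Krt6a, Sprr1b, Sprr2d, Dsg3 and Serpinb1a, and the genotypes overlap for Krt13, Sprr1a and Dsc2.

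Of the envelope genes, Sprr1a had no lower level in TKO. It had 295 and 426 UMIs in TKO epithelial cells, against 563 and 595 in DKO epithelial cells, or 149 and 491 CPM against 423 and 133 CPM. The highest library was a TKO library and the lowest a DKO library, and the fitted log2 fold change was 0.11 ± 0.75. It was -0.86 without TKO replicate 2 and -0.50 without DKO replicate 2, but 0.67 without TKO replicate 1 and 1.12 without DKO replicate 1, and it was -1.14 without cells holding 10 or more leukocyte UMIs. A single TKO replicate 2 cell held 257 of the 426 UMIs of that library.

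Sprr1b was rare. It had 0 and 1 UMIs in TKO epithelial cells and 5 and 52 in DKO epithelial cells (0 and 1.15 against 3.76 and 11.7 CPM). A count of 0 in TKO replicate 1 allows up to 1.52 CPM. The gene failed the filter on low counts, so no fitted change is given. It was found in 0 and 1 TKO cells and in 1 and 5 DKO cells, with 21 of the UMIs in 1 DKO cell.

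Sprr2d had 38 and 2 UMIs in TKO epithelial cells and 458 and 578 UMIs in DKO epithelial cells (19.2 and 2.30 against 344 and 130 CPM, fitted log2 fold change -4.25 ± 0.98, and -6.79 to -3.47 with a library left out). This gap rested on 2 cells: 456 of the 458 UMIs of DKO replicate 1 and 570 of the 578 UMIs of DKO replicate 2 came from 1 cell each. The DKO replicate 2 cell drew 2.02% of its UMIs from fibroblast markers and held 209 UMIs of leukocyte genes, so it may hold RNA of more than 1 cell, which was not tested. With each library's highest cell left out, Sprr2d stood at 7.31 and 1.16 CPM in TKO and 1.58 and 1.86 CPM in DKO, and the genotypes overlapped. The shares of cells with a UMI were 5.56% and 7.41% in TKO and 8.33% and 7.53% in DKO.

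The desmosomal cadherin Dsg3 had 42 and 12 UMIs in TKO epithelial cells and 69 and 211 in DKO epithelial cells (21.3 and 13.8 against 51.9 and 47.3 CPM, fitted log2 fold change -1.48 ± 0.34, and -2.00 to -1.20 with a library left out). Within luminal-only cells it stood at 8.14 and 1.25 CPM in TKO and 0.952 and 8.51 CPM in DKO, and within basal keratin cells at 76.7 and 167 against 243 and 143 CPM. The genotypes overlapped in each kind of cell taken alone. With each library's highest cell left out, the basal keratin levels were 48.9 and 0 CPM in TKO and 187 and 99.98 CPM in DKO. The 0 came from the single basal keratin cell then left in TKO replicate 2, with 28197 UMIs in all. It therefore does not show that the genotypes are apart in basal keratin cells. The DKO libraries held the larger shares of basal keratin cells given above, whose part in the Dsg3 difference was not tested. Dsc2 had 53 and 34 UMIs in TKO and 52 and 294 in DKO epithelial cells. Its levels overlapped by a narrow margin, at 26.8 and 39.16 CPM in TKO and 39.11 and 65.9 CPM in DKO. The fitted log2 fold change was -0.78 ± 0.36, and -1.12 to -0.31 with a library left out. Dsc2 levels were apart in luminal-only cells, at 23.2 and 22.4 CPM in TKO and 35.2 and 48.3 CPM in DKO. In basal keratin cells they overlapped, at 42.3 and 243 CPM in TKO and 53.7 and 109 CPM in DKO.

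Serpinb1a, the most widely detected of the 8, was found in 25 of 54 and 14 of 27 TKO epithelial cells and in 20 of 36 and 54 of 93 DKO epithelial cells. It had 89 and 88 UMIs in TKO, against 369 and 766 in DKO, or 45.1 and 101 CPM against 278 and 172 CPM, without overlap (fitted log2 fold change -1.71 ± 0.42, and -2.29 to -1.30 with a library left out). The genotypes stayed apart in luminal-only cells, at 43.2 and 107 CPM in TKO and 202 and 167 CPM in DKO. In basal keratin cells the levels were 52.9 and 30.4 CPM in TKO and 562 and 183 CPM in DKO. Here TKO replicate 2 had 2 UMIs, and 1 cell held 87 of the 157 UMIs of DKO replicate 1. Without the 33 cells that held RNA of other types the fitted log2 fold change was -2.42.

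Read together, both TKO libraries lay below both DKO libraries for 5 of the 8 genes, and none lay above. Over the 10717 genes that passed the filter on low counts, 17.6% had both TKO libraries below both DKO libraries and 21.3% above. Among the 7 members that passed, 6 had a fitted log2 fold change under 0, as did 48.5% of all genes. Their median was -1.71, against 0.02 over all genes. Since the genes were picked on this contrast, nothing is read from these counts. With each library's highest cell left out for each gene, 3 of these 5 (Krt6a, Dsg3 and Serpinb1a) still lay below. Sprr1b and Sprr2d did not, and Dsc2, which had overlapped, did. Without the 33 cells with RNA of other types, fitted log2 fold changes were -2.48 ± 0.60 for Krt6a and -1.22 ± 0.31 for Dsg3. They were -0.43 ± 0.37 for Dsc2, -3.70 ± 2.25 for Krt13, 0.33 ± 1.00 for Sprr1a and -4.21 ± 2.42 for Sprr2d. Without cells holding 10 or more leukocyte UMIs, Krt6a stood at -2.41 ± 1.16 and Dsg3 at -1.79 ± 0.87. Dsc2 stood at -0.063 ± 0.51, Serpinb1a at -2.40 ± 0.53 and Sprr1a at -1.14 ± 0.51. Krt13, Sprr1b and Sprr2d then failed the filter on low counts. The edgeR quasi-likelihood test called 0 of the 10717 genes at an adjusted p of 0.05 (0% of genes). At an unadjusted edgeR p under 0.05 stood 726 genes. DESeq2 called 57 genes. With edgeR 63 genes were called without TKO replicate 1, 22 without TKO replicate 2, 4 without DKO replicate 1 and 0 without DKO replicate 2.

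Most epithelial cells carried at least 1 of the 8 transcripts: 40 of 54 and 19 of 27 in the TKO libraries (74.1% and 70.4%) and 28 of 36 and 75 of 93 in the DKO libraries (77.8% and 80.6%). The exact 95% binomial intervals were 60.3 to 85.0% and 49.8 to 86.2% in TKO and 60.8 to 89.9% and 71.1 to 88.1% in DKO, which overlap. With every cell thinned to 3000 UMIs, which left out 4 and 3 TKO cells and 0 and 3 DKO cells, the shares were 44.7% and 42.3% in TKO against 60.5% and 57.0% in DKO. Leaving Serpinb1a out, the unthinned shares were 59.3% in each TKO library and 69.4% and 74.2% in the DKO libraries. In T- and NK-like cells of the same libraries, which should lack the other 7 genes, shares were 15.0% and 10.3% in TKO and 17.7% and 10.0% in DKO, at median depths of 10628 to 13107 UMIs. The epithelial shares were above this background in every library.

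Counts were gathered in few cells. Of the 9379 UMIs of the 8 genes, 51.6% lay in 10 of the 210 cells, and 48 cells had none. The number of cells that held 50% of a gene's UMIs was 1 for Sprr2d, 2 for Krt13 and Sprr1b, 6 for Sprr1a and Dsg3, 7 for Krt6a and 14 for Dsc2 and Serpinb1a. The highest cell, a basal keratin cell of DKO replicate 1 with 61534 UMIs in all, had 720 UMIs of Krt13, 314 of Krt6a and 37 of Serpinb1a. The next, a luminal-only cell of DKO replicate 2 with 154637 UMIs, had 570 of Sprr2d, 181 of Krt13 and 155 of Krt6a. The third, a basal keratin cell of DKO replicate 1, had 456 of Sprr2d, 142 of Sprr1a and 87 of Serpinb1a. The fourth, a basal keratin cell of DKO replicate 2, had 378 of Krt6a, 64 of Dsg3 and 21 of Sprr1b with no Sprr2d. The highest TKO cell, luminal-only, owed 257 of its 273 UMIs to Sprr1a. Of these 10 cells, 9 were DKO cells and 1 was a TKO cell, where DKO libraries held 129 of the 210 epithelial cells at higher median depth. The ranking used raw UMIs of genes chosen on this contrast, so nothing is read from this count.

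**Figure D2:**
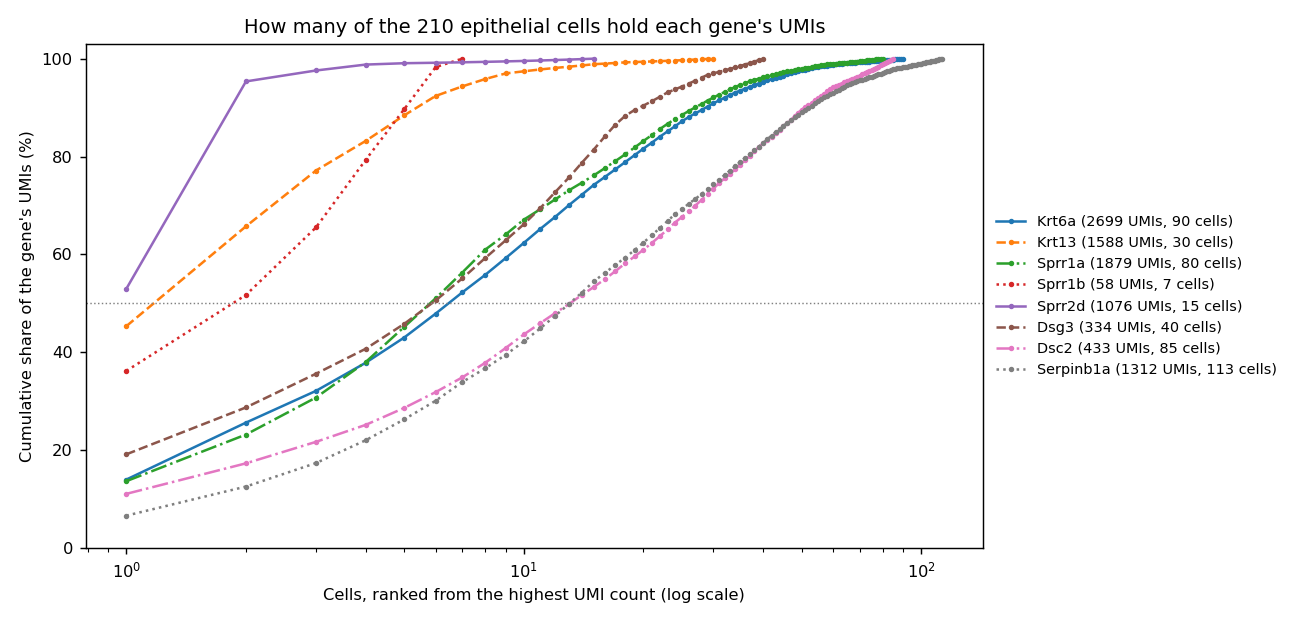
Cumulative share (%) of each gene's UMIs over the 210 epithelial cells ranked from the highest count (log scale), with the dotted line at 50%. The Sprr2d curve passes 50% at the first cell and the Krt13 and Sprr1b curves at the second, while Dsc2 and Serpinb1a need 14 cells.

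The genes did not appear in cells as 1 block. No cell carried all 8, 2 cells carried 7 and 53 carried at least 4 (10 and 3 TKO cells, 11 and 29 DKO cells). Dsg3 was found mostly in cells with other members: of its 40 cells, 37 also carried Krt6a (92.5%) and 36 carried Dsc2 (90%), which are 41.1% of the 90 Krt6a cells and 42.4% of the 85 Dsc2 cells. All 7 Sprr1b cells carried Krt6a. Sprr1b and Sprr2d, found in 7 and 15 cells, shared 0 cells. Across the 210 cells the Spearman correlation of log2(UMIs per 10000 + 1) was 0.55 for Krt6a with Dsg3 and 0.50 for Dsg3 with Dsc2, against -0.05 for Sprr1b with Sprr2d and 0.01 for Sprr1a with Sprr2d. These cells share libraries and differ in depth, and single genes correlated with total UMIs at 0.10 (Sprr2d) to 0.60 (Serpinb1a), so the correlations are a description.

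Basal keratin cells were compared with luminal-only cells of the same library, a split that used Krt5 and Krt14 and none of the 8 genes. No member passed the edgeR test with library as a block. Sprr1b, with 0 UMIs in luminal-only cells of the libraries fitted, passed the count filter only through basal keratin cells and so had to differ. Dsg3, with 13, 1 and 27 UMIs in luminal-only cells of TKO replicate 1 and DKO replicates 1 and 2, also passed only through basal keratin cells. Its p-values are therefore a description. Leaving Sprr1b aside, Dsg3, Dsc2 and Krt6a had an unadjusted edgeR p under 0.05, and DESeq2 called 2 (Dsg3 and Krt6a). Of the 7 members without Sprr1b, 6 had a fitted log2 fold change over 0, as did 47.1% of the 10122 genes tested. The fit used TKO replicate 1 and both DKO libraries (n = 3 each), since TKO replicate 2 had 2 basal keratin cells. Of all genes tested 0.00988% (1 gene, Krt5, which defined the split, adjusted p = 0.0108) passed as higher in basal keratin cells and 0% as lower, and none passed with any 1 of the 3 libraries left out. At an unadjusted p under 0.05 stood 1138 genes, and DESeq2 called 227. Basal keratin cells were deeper, with median UMIs of 60332 and 32941 in TKO and 45656 and 64255 in DKO, against 13104 and 9161 and 20667 and 20583 in luminal-only cells.

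Dsg3 had the smallest p of the 8. It stood at 76.7 and 167 CPM in basal keratin cells of the TKO libraries, against 8.14 and 1.25 CPM in their luminal-only cells. In the DKO libraries it stood at 243 and 143 CPM in basal keratin cells and 0.952 and 8.51 CPM in luminal-only cells. It was higher in basal keratin cells in 4 of 4 libraries, with no overlap between the kinds, at a fitted log2 fold change of 4.47 ± 0.84 (SE, edgeR adjusted p = 0.17). Dsg3 passed with DESeq2 (adjusted p = 5.76e-06) and, with edgeR, when the 2 basal keratin cells of TKO replicate 2 were added (adjusted p = 0.033). Since it passed the count filter of these fits only through basal keratin cells, no conclusion is drawn from these p-values. Over its edgeR alternatives the adjusted p ran from 5.08e-05 to 0.31.

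Krt6a was likewise higher in basal keratin cells in 4 of 4 libraries, at 175, 75.9, 2151 and 1082 CPM in TKO replicates 1 and 2 and DKO replicates 1 and 2, against 88.9, 24.9, 58.1 and 129 CPM in luminal-only cells. The kinds overlapped across libraries, and the fitted log2 fold change of 3.08 ± 0.99 did not pass (edgeR adjusted p = 0.35), though DESeq2 gave an adjusted p of 0.0053. Dsc2 was higher in 4 of 4 libraries too (0.92 ± 0.29, edgeR adjusted p = 0.32). Sprr1b had 57 of its 58 UMIs in 6 basal keratin cells, all of them DKO cells, and 0 UMIs in basal keratin cells of TKO, where 8 cells were sampled.

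None of the other 4 genes was higher in basal keratin cells in all 4 libraries. Sprr1a differed by 0.48 ± 0.28 and Serpinb1a by 0.67 ± 0.43 (edgeR adjusted p = 0.58 and 0.62). Both were higher in basal keratin cells of each library fitted. In TKO replicate 2 both were lower there, at 30.4 against 528 CPM and 30.4 against 107 CPM. Each 30.4 CPM was 2 UMIs. Of the luminal-only UMIs of that library, 1 cell held 257 of 424 for Sprr1a and 1 cell held 63 of 86 for Serpinb1a. Krt13 differed by 1.87 ± 0.87 (edgeR adjusted p = 0.51). Sprr2d differed by -2.25 ± 4.50 (edgeR adjusted p = 0.90): 1632 CPM in basal keratin against 1.904 CPM in luminal-only cells in DKO replicate 1, and 1.55 against 182 CPM in DKO replicate 2, from the 2 cells named above. Its direction turned without TKO replicate 1 (1.51) and without DKO replicate 2 (3.68), and that of Sprr1a turned with TKO replicate 2 added (-0.29).

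**Figure D3:**
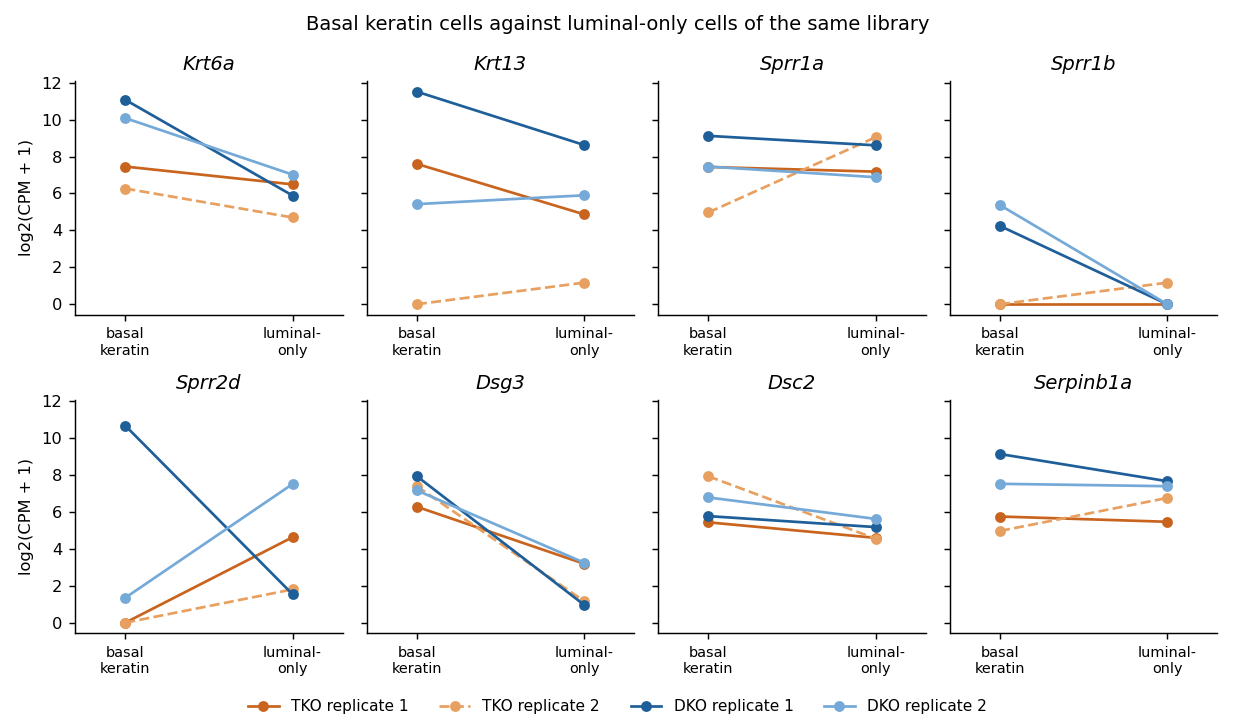
Level of each gene, as log2(CPM + 1), in basal keratin cells (left) and luminal-only cells (right) of each library, with lines joining cells of the same library (dashed for TKO replicate 2, which had 2 basal keratin cells). Dsg3, Krt6a and Dsc2 are higher in basal keratin cells in all 4 libraries, while Sprr2d goes opposite ways in the DKO libraries.

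In non-epithelial classes, 7 of the 8 genes were low. In the neutrophil-, T- and NK-, dendritic-, macrophage- and monocyte-, B- and plasma-, fibroblast- and endothelial-like cells their mean levels over the 4 libraries ran from 0 to 6.74 CPM, and the highest single library was at 15.5 CPM (Krt6a in fibroblast-like cells of TKO replicate 2). How much of this was free RNA was not tested. Sprr1b had 0 UMIs in the 1326 neutrophil-like and 1012 T- and NK-like cells. A group of 64 shallow cells below the gate, named prostate luminal-like from its markers and with 0.115 times the median depth of its libraries, was different: it averaged 246 CPM of Krt6a, 208 of Sprr1a, 95.1 of Sprr2d and 56.8 of Sprr1b. These levels rest on 22, 24, 9 and 5 UMIs.

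Serpinb1a was the exception. Its mean level was 517 ± 469 CPM (SD over 4 libraries) in a cluster of 14 cells led by Cpa3 and Mcpt8, 207 ± 246 in basal keratin cells, 130 ± 69.7 in luminal-only cells and 102 ± 19.5 in fibroblast-like cells. It was 74.9 ± 15.9 in T- and NK-like, 61.6 ± 41.4 in endothelial-like, 49.0 ± 4.91 in the shallow prostate luminal-like (5 UMIs), 28.5 ± 8.26 in dendritic-like, 26.5 ± 33.9 in macrophage- and monocyte-like, 19.1 ± 21.8 in B- and plasma-like and 5.06 ± 2.43 CPM in neutrophil-like cells. Most neighbours in this order overlapped over the libraries. Fibroblast-like cells (75.6 to 120 CPM), T- and NK-like cells (54.0 to 90.4 CPM) and dendritic-like cells (20.7 to 40.1 CPM) all lay above neutrophil-like cells (3.18 to 8.59 CPM) in each library. The order of the epithelial kinds against fibroblast-like cells did not exceed their spread.

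No genotype difference in Serpinb1a outside the epithelium passed the edgeR test. In T- and NK-like cells it had 54.0 and 72.1 CPM in TKO and 83.2 and 90.4 CPM in DKO, a log2 fold change of -0.47 ± 0.19 (SE, edgeR adjusted p = 0.84). Fibroblast-like cells had 99.5 and 120 CPM in TKO and 75.6 and 113 CPM in DKO (0.19 ± 0.26, edgeR adjusted p = 1.00), and dendritic-like cells 27.3 and 20.7 against 25.7 and 40.1 CPM (-0.40 ± 0.30, edgeR adjusted p = 0.88). Macrophage- and monocyte-like cells had 11.05 and 11.43 CPM in TKO and 77.2 and 6.18 CPM in DKO (-2.00 ± 1.13, edgeR adjusted p = 0.79), with the high value in DKO replicate 1, where 46 of 81 UMIs came from 1 cell. Without DKO replicate 2 this change was -2.86 (edgeR adjusted p = 0.0024), in a fit that rests on that 1 DKO library and takes its spread from the TKO libraries alone. In neutrophil-like cells, at 3.18 and 8.59 CPM in TKO and 3.83 and 4.63 CPM in DKO, the gene failed the count filter. The only other members that passed the count filter were Sprr1a and Sprr2d in T- and NK-like cells and Sprr1a in neutrophil-like cells, and none was called. Over all genes the test called 0.0360% in T- and NK-like, 0% in fibroblast-like (363 genes at an unadjusted p under 0.05, and 4 called by DESeq2), 0.0335% in dendritic-like, 0.0264% in macrophage- and monocyte-like and 0.0113% in neutrophil-like cells. Whether the genotype effect in epithelial cells differed from that in other classes was not tested.

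**Figure D4:**
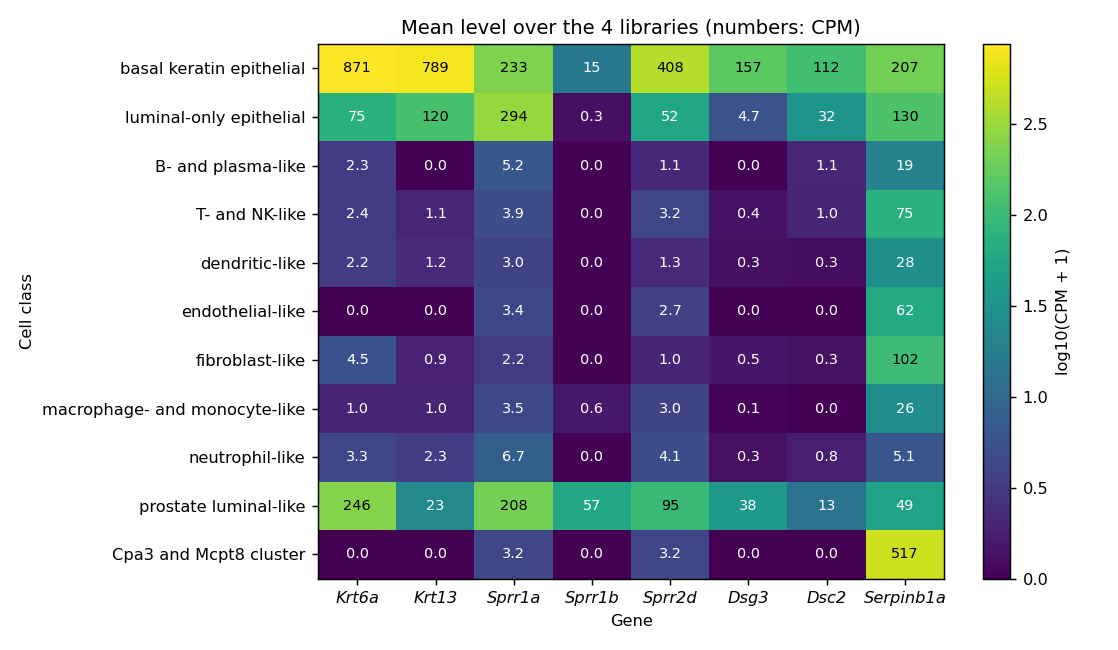
Mean level of each gene over the 4 libraries in the 2 kinds of epithelial cell and in each other cell class, with numbers in CPM and colour as log10(CPM + 1). Serpinb1a is above 19 CPM in every class but neutrophil-like cells, while the other genes stay under 7 CPM outside the epithelial rows and the shallow prostate luminal-like cells.

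Close relatives of the 8 genes gave a mixed picture. Sprr2f had more UMIs than Sprr2d, 2509 over 22 epithelial cells, at 54.7 and 1.15 CPM in TKO and 387 and 423 CPM in DKO. Sprr2a3 had 789 UMIs over 55 cells, at 61.3 and 15.0 CPM in TKO and 223 and 80.3 CPM in DKO, though reads may be split between it and its near-identical copies Sprr2a1 and Sprr2a2. Sprr2k had 64 UMIs in 1 TKO replicate 2 cell. Sprr3, Sprr4, Sprr2e, Sprr2h and Sprr2i had 0 UMIs in the 210 cells. Krt6b, a close paralogue of Krt6a, had 39 UMIs in 3 DKO cells and Krt75 had 0. Serpinb1b and Serpinb1c had 4 and 1 UMIs, so the serpin signal of this branch was that of Serpinb1a.

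Other genes of the squamous programme were taken from lists. In TKO against DKO epithelial cells none passed the edgeR test. Fitted log2 fold changes under 0 were found for 8 of 9 tested desmosome genes (median -0.77), 9 of 10 cornified envelope genes (-1.49), 5 of 7 stratified keratins (-0.85), 5 of 7 clade B serpins (-1.03), 12 of 17 regulators (-0.38) and 19 of 22 other squamous genes (-0.88), beside 48.5% of all genes and a median of 0.02. The same held for 4 of 4 tested uroplakin genes (-1.76) and 4 of 10 prostate luminal genes (0.14). The lists leave out the 8 genes themselves. The desmosome genes with the smallest p were Perp, a p53 target needed for desmosomes (81.5 and 53.0 CPM in TKO, 217 and 162 CPM in DKO), the plaque protein gene Dsp (123 and 119 against 186 and 211 CPM) and the plakophilin Pkp3 (40.5 and 32.3 against 62.4 and 66.6 CPM).

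Among serpins, Serpinb5 (maspin) had 23.8 and 32.3 CPM in TKO and 65.4 and 117 CPM in DKO. Among regulators Ovol1 had 20.3 and 19.6 CPM in TKO and 39.1 and 58.5 CPM in DKO, and Hes1, a Notch target, had 404 and 617 CPM in TKO and 189 and 261 CPM in DKO. Hes1 was thus one of few list genes that were higher in TKO (fitted log2 fold change 1.10 ± 0.28, edgeR adjusted p = 0.57). Among the other squamous genes Cstb, a cysteine protease inhibitor, had 417 and 412 CPM in TKO and 805 and 681 CPM in DKO. By the edgeR test, Serpinb5 had an adjusted p of 0.55, and Perp, Ovol1 and Cstb each had 0.57.

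In basal keratin against luminal-only cells, the list gene with the smallest p was Pbsn (probasin, a secretory product of prostate luminal cells), at a log2 fold change of -5.82 ± 0.52 and an edgeR adjusted p of 0.072. The squamous list genes that came nearest to the threshold were Trp63, the master regulator of the basal layer (log2 fold change 7.65 ± 0.80), the plakophilin Pkp1 (3.27 ± 0.31), Perp (2.98 ± 0.32) and the desmocollin Dsc3 (5.09 ± 0.55), each with an edgeR adjusted p of 0.072. Next came the lectin Lgals7 (7.08 ± 0.95, edgeR adjusted p = 0.11), Lypd3 and Fabp5 (0.12 each) and Serpinb2 (0.13). Some of these had few UMIs. In all epithelial cells of TKO replicate 1 and DKO replicates 1 and 2, Trp63 had 19, 8 and 99, and Serpinb2 had 1, 7 and 410. With changes this large, such genes can pass the count filter only through 1 kind of cell. Their p-values are therefore a description. Of the lists, 7 of 9 desmosome genes, 6 of 7 stratified keratins, 9 of 11 cornified envelope genes, 6 of 7 clade B serpins, 12 of 17 regulators and 19 of 22 other squamous genes had a fitted change over 0, beside 47.1% of all genes. By contrast 1 of 10 prostate luminal and 1 of 3 uroplakin genes did.

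The genes whose pattern over the 210 epithelial cells was most like the summed log2 values of the 8 genes were S100a14 (Spearman 0.64), S100a16 (0.61), Anxa2 (0.59), Mall (0.58), Anxa8 (0.58), S100a10 (0.57), Serpinb5 (0.56), Urah (0.56), S100a11 (0.55) and Mgst3 (0.53). The median over the 11285 genes detected in at least 10% of these cells was 0.14, and total UMIs gave 0.41. By library, S100a14 had 0.52 and 0.47 in TKO and 0.67 and 0.73 in DKO. Mall had 0.58 and 0.14 in TKO and 0.81 and 0.55 in DKO, so the likeness of single genes varied between libraries.

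Cells on either side of the gate's threshold were also described. In the 35 cells with 10 to 19 gate UMIs, just inside, 51.4% carried at least 1 of the 8 genes at 117 CPM in sum. In the 31 cells with 5 to 9 gate UMIs, just outside, 48.4% did, at 93.7 CPM. In the 175 cells with 20 or more the share was 82.3%, at 1209 CPM. Median depths were 8131 UMIs for 10 to 19 gate UMIs, 20052 for 5 to 9 and 28756 for 20 or more. The part of depth in these shares was not tested.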

How the data were processed

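Tumours were dissociated, red cells lysed and dying cells removed with Annexin V, per the labels' protocols, so cell numbers describe what survived. The deposited values are raw counts of UMIs per gene and cell from 3-prime v3.1 libraries, made by the authors with Cell Ranger 7.0.0 and STAR on mm10, per the submitters' processing notes. The 4 libraries were hashtagged and combined. Cells with under 200 genes or over 20% mitochondrial UMIs were dropped (kept: 3381 of 3508 barcodes, 9167770 to 18360201 UMIs per library). No doublet caller was run, so doublets were kept. CPM are UMIs per 1000000 UMIs of the cells summed.

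UMIs summed per library were tested with edgeR 4.0.16 (R 4.3.3; TMM, filterByExpr, robust quasi-likelihood, Benjamini-Hochberg at 0.05 over all genes). SEs are those implied by the fitted change and F. Other cells were clustered (scanpy 1.11.5, leidenalg 0.10.2, resolution 1.0, 2000 variable genes, 30 components, 20 neighbours) and named from at least 3 raised markers. A cluster led by Cpa3 and Mcpt8 is called by those genes, and 107 cells of unnamed clusters were not used. Classes with 20 cells in each library were tested. Shares carry exact 95% binomial intervals, which cover counting error only, as do floors of 3 counts. Thinning to 3000 UMIs is the exact expectation.

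The members, lists and tests were chosen with earlier results of these data known. Named list genes are among the 4 with the smallest p per list and comparison, and like genes are the 10 of highest correlation. Alternatives were DESeq2 1.42.0, RLE scaling, no count filter, gates of 5 and 20 UMIs, cells with 10 leukocyte UMIs left out, no cell filter, blocks, single libraries left out and, chosen after seeing the data, 3 more: cells with 1% of UMIs from other types left out, TKO replicate 2 added to the basal comparison and highest cells left out. The fits were tested on simulated data. An allele is not reported here.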

Additional observations from a re-analysis of the deposited data

How the results depend on the processing

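Between TKO and DKO epithelial cells, the median fitted change of the members, -1.71 over 7 genes, was below 0 in every alternative run, over 5 to 8 genes chosen on this contrast: -1.74 with a replicate block, -2.42 without cells holding RNA of other types, -0.90 in luminal-only and -2.62 in basal keratin cells, and -2.47 to -1.42 with a library left out. The replicate block called 0 genes, as did the fit without it. The numbers were not taken as pairs, since there are 2 pairs and nothing in the labels ties them (deviations of the same number correlated at 0.12 over 6769 genes). The count of called genes, 0, became 57 with DESeq2, 428 without the count filter and 3 with a gate of 5 UMIs, and ran from 0 to 63 with a library left out, where the lone library is assumed to vary like the other genotype's.

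In the basal keratin comparison the count, 1, became 50 without the library block, 227 with DESeq2, 354 without the count filter, 47 and 4 with gates of 5 and 20 UMIs, 142 without cells holding 10 leukocyte UMIs, 15 without cells of other types and 58 with TKO replicate 2 added, and 0 (lowest and highest) with a library left out. Members past the threshold, 0, became 1 without the block, 2 with DESeq2, 1 without the filter, 3 without leukocyte-rich cells and 1 with TKO replicate 2. Sprr1b, absent from luminal-only cells of the libraries fitted, is the 1 without the filter and 1 of the 3. Dsg3, which passed the main count filter only through basal keratin cells, is the 1 without the block and the 1 with TKO replicate 2. It is also 1 of the 2 with DESeq2 and 1 of the 3 without leukocyte-rich cells. Sprr1a reversed to -0.23 with a gate of 5, -0.20 without leukocyte-rich cells and -0.29 with TKO replicate 2. Sprr2d reversed to 3.07 without the block and 1.59 without cells of other types, and ran from -6.97 to 3.68 with a library left out (1.51 without TKO replicate 1). Krt15 reversed to -0.58 without leukocyte-rich cells. With a library left out of the genotype comparison, Krt17 ran from -3.51 to 0.12 and Serpinb2 from -6.54 to 0.27, both highest without DKO replicate 2. The cause was not tested.

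In other classes 0 members passed, and 1 did (Serpinb1a in macrophage- and monocyte-like cells, -2.86) without DKO replicate 2, so the range was 0 to 1. Serpinb1a in fibroblast-like cells ran from -0.071 (without DKO replicate 1) to 0.52. The difference in the share of cells with any of the 8 genes, -6.99 percentage points (TKO minus DKO), was -10.9 and -11.4 with gates of 5 and 20 UMIs, -13.1 without leukocyte-rich cells, -12.0 without cells of other types and -15.3 after thinning.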
